A study of Mus musculus with 18 samples.

Results

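Long-span circRNAs are circRNAs whose back-spliced ends lie over 50000 bp apart on the genome. They were chosen by position and by the lists that held them, so the choice was not independent of read counts. A circRNA entered if it was listed in a cytoplasmic or total RNA library and was in none of the nuclear lists. It also had to have both ends on annotated exon edges and span more than 50000 bp. This gave 638 circRNAs, 12 of them without and the rest with 1 of 358 host genes, out of 15005 exonic circRNAs outside the nuclear lists and 16164 circRNA positions in all. All libraries were made from NIH/3T3, an established line of mouse embryonic fibroblasts, either wild type (WT) or XPO4 knockout (KO). The KO cells are 1 CRISPR-Cas9 edited line, so genotype and line cannot be told apart. Junction reads were available from 2 libraries each of cytoplasmic, total (whole-cell) and nuclear RNA per genotype, and gene counts from 3 mRNA-seq libraries per genotype with 16974062 to 22057323 counted fragments each. Nothing in the labels ties the libraries to separate cultures, and p-values then measure only the spread between these libraries.

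A circRNA forms when a downstream splice donor joins an upstream splice acceptor of the same pre-mRNA, which closes the exons between them into a covalent ring. The introns inside are usually spliced out, so the genomic span of a circRNA says little about the length of the ring. Long introns on both sides of the circularized exons are a known feature of circRNA loci, and exportin 4 (XPO4) is a nuclear transport receptor studied here for the export of circRNAs.

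The sequence across the back-splice junction is what a junction read has to contain. For the 8 long-span circRNAs with the most reads, and the 4 with the largest span, the last 15 bases of the donor exon are given in lower case and the first 15 bases of the acceptor exon in capitals, 5′ to 3′ on the transcribed strand, from the GRCm38 (mm10) genome. They show which exon ends were joined and which circRNAs share one.
circCpq, chr15:33249926-33302547, plus strand: atgtatccagaggaaGCATCACAGCAGAAG
circDiaph3, chr14:86852072-86910123, minus strand: acaaagctagcagagCAATCTTCCTGAGCT
circRnf150, chr8:82990347-83042782, plus strand: tctttacaactaacaGTGTGGAAGACATCG
circPcdh19, chrX:133625269-133681408, minus strand: agatgcctgaccatgAATCGCTGAGTACTC
circDiaph3, chr14:86810336-86866642, minus strand: tagaaatgaaaactgATGAGCAATGTGAAG
circDtnb, chr12:3589171-3648389, plus strand: gagcattcctcttggGATGATTGAGGAAGG
circStau2, chr1:16440323-16509408, minus strand: catgtacaatcagagTTTTGTGGAGCTGTG
circRere, chr4:150439343-150510038, plus strand: aatgcactgaacacaGTCCACAGCTCCCAG
circErc1, chr6:119594785-119694731, minus strand: atgactcaggagcagGTGGAAGAGCTGTTG
circDiaph3, chr14:86810336-86910123, minus strand: tagaaatgaaaactgCAATCTTCCTGAGCT
circSox5, chr6:143861384-143960917, minus strand: tgccggacagaaaagGTTCAAGGTCAGCTG
circOphn1, chrX:98626914-98726115, minus strand: gaacactttggcaagGCAGACCTCCAAGTG

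The 3 Diaph3 junctions show the sharing directly. The circRNA of 99788 bp carries the donor end of the one at chr14:86810336-86866642 and the acceptor end of the one at chr14:86852072-86910123. In all 600 long-span circRNAs with an annotated transcript holding both ends, the bases flanking the circle were GT after the donor exon and AG before the acceptor exon; the same held for every circRNA of the other classes with such a transcript.

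The long-span circRNAs were long on the genome and short as RNA. Their span ran from 50105 to 99947 bp, with a median of 64123.5 bp, and no circRNA in any list spanned over 100000 bp. The spliced ring, counted over the annotated exons between the ends, had a median of 782 nucleotides (interquartile range 499 to 1245.5). Compact multi-exon circRNAs, which span up to 5000 bp, had a median ring of 374 nucleotides, and multi-exon circRNAs of 5000 to 50000 bp had 634. The median number of exons was 6 in long-span, 5 in the middle class and 3 in compact circRNAs. Rings of 10 or more exons made up 21.7% of the long-span circRNAs (130 of 600) and 0.0869% of the compact ones. At the other end, 118 long-span circRNAs held just 2 or 3 exons. The single largest intron inside the circle had a median of 33338 bp and took a median of 51.2% of the span. Ring length and inner introns follow in part from the span that chose the class, so they are given as a description.

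The introns flanking the circle were not used in the choice. The intron upstream of the long-span circRNAs had a median of 18228.5 bp and the downstream one 17646 bp. In compact circRNAs these were 3362.5 and 2634 bp, in the middle class 7214.5 and 5126 bp, and in single-exon circRNAs 10460 and 7747 bp. The host genes were long as well, with a median of 233722 bp against 56770 bp for hosts of compact circRNAs, and a gene must exceed 50000 bp to hold a long-span circle. The circle began at exon 2 of its transcript in 217 of 600 long-span circRNAs (36.2%), 919 of 4603 compact and 236 of 529 single-exon circRNAs. In the middle class this held for 2725 of 9028 circRNAs (30.2%). The circle held the annotated start codon without the stop codon in 22.8% of long-span against 9.67% of compact circRNAs. The middle class stood at 15.1% and single-exon circRNAs at 31.0%, above the long-span ones. Coding sequence alone was held by 71.2% of long-span, 87.8% of compact, 82.4% of middle-class and 64.8% of single-exon circRNAs. GC content of the ring was close in the classes, at 48.1% in long-span and 49.5% in compact circRNAs. Perfect inverted repeats were searched between the nearest 1000 bases of both flanking introns. The longest match had a median of 10 bases in long-span and 11 in compact circRNAs. Matches of 20 bases or more occurred in 15 of 581 long-span (2.58%) and 209 of 3316 compact circRNAs (6.30%). In the middle and single-exon classes they occurred in 3.74% and 3.79%. Direct matches of 20 bases or more occurred in 2.24% of long-span and 4.37% of compact circRNAs. The lower share in long-span circRNAs was thus not particular to inverted repeats.

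**Figure D1:**
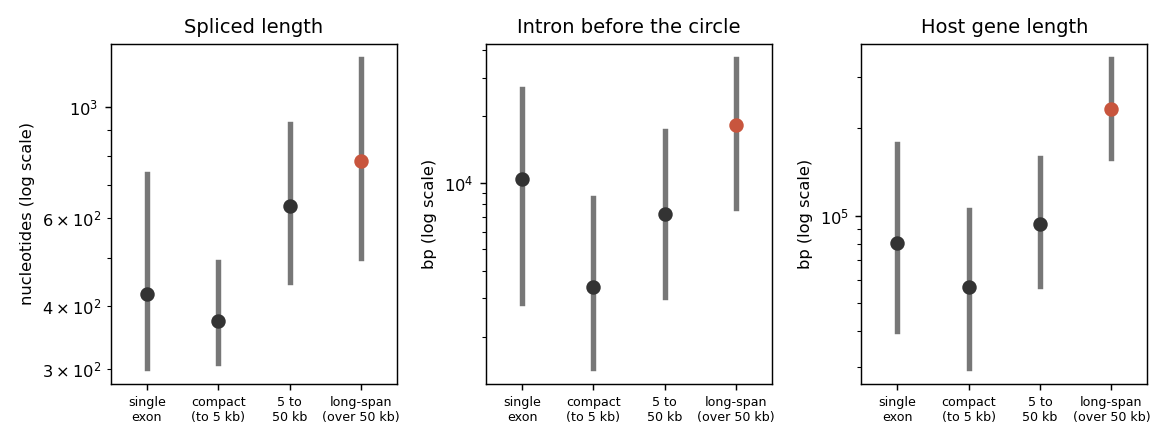
Spliced ring length in nucleotides, upstream intron and host gene length in bp, each on a log scale, for single-exon, compact, 5 to 50 kb and long-span circRNAs. Points are medians over circRNAs and bars the interquartile range; the long-span class (orange) has the highest median in each panel, 782 nucleotides, 18228.5 bp and 233722 bp.

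Just inside the limit of 50000 bp lay circAkap7 at 50105 bp, with 8, 8, 10 and 3 reads in total RNA (WT, WT, KO, KO) and none in the cytoplasmic lists. circTiam2 at 50151 bp had 6, 7, 0 and 3 cytoplasmic reads, and circThada at 50208 bp had 7, 8, 0 and 1. Just outside lay circGphn at 49995 bp with 2, 0, 5 and 7 cytoplasmic reads, circPir at 49971 bp with 3, 1, 9 and 8, and circSh3kbp1 at 49843 bp with 2, 2, 7 and 7 reads in total RNA.

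The 24 exonic circRNAs over 50000 bp that were in a nuclear list are not among the 638. They made up 3.55% of the 677 exonic circRNAs in the nuclear lists, while long-span circRNAs made up 4.25% of those outside. The nuclear libraries held 2189 to 4383 junction reads each, against 50341 to 81941 in the other 8 libraries. The 24 had 6 to 35 nuclear reads, so absence from these lists does not mean absence from the nucleus at this depth.

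The lists themselves limit what a KO against WT comparison can show. Every circRNA in a cytoplasmic or total RNA list had at least 2 reads in both replicates of at least 1 genotype. Of the 364 long-span circRNAs in the cytoplasmic lists, 89 reached this in both genotypes (24.5%), 169 in WT alone and 106 in KO alone. Of all 9648 circRNAs in these lists, 34.2% reached it in both genotypes, 3578 in WT alone and 2772 in KO alone. In total RNA, 155 of 449 reached it in both (34.5%, against 39.0% of all circRNAs listed), 167 in WT alone and 127 in KO alone. In the genotype with fewer reads, 11 of the 364 had 0 reads, 241 (66.2%) had 1 to 3 in all and 48 had 4 to 5. Of all circRNAs in the cytoplasmic lists, 400 of 9648 had 0 and 57.1% had 1 to 3. A long-span circRNA listed through 1 genotype had under 2 reads in at least 1 replicate of the other. A count of differences between the genotypes thus describes the lists as well as the cells.

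**Figure D2:**
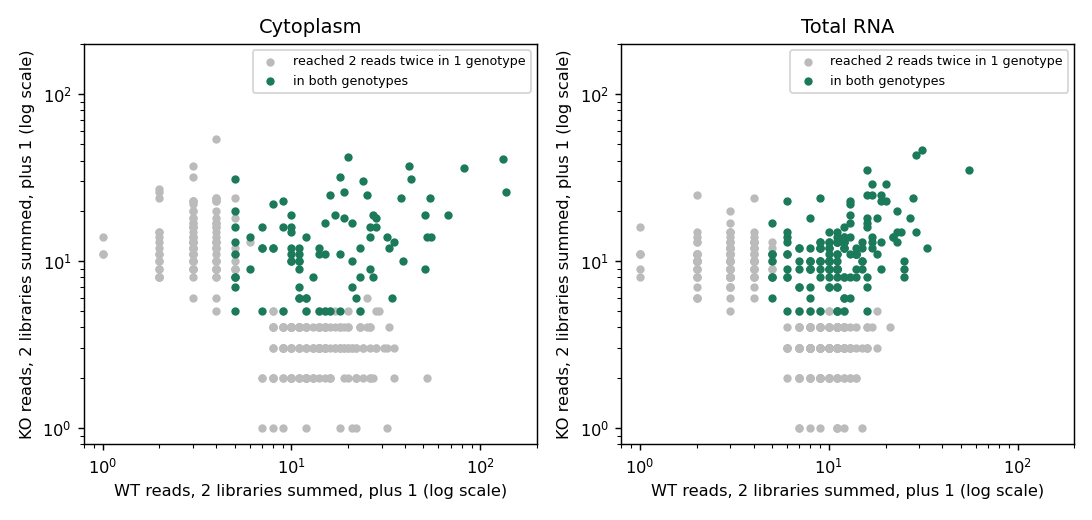
Junction reads of each long-span circRNA summed over the 2 WT libraries (x axis) and the 2 KO libraries (y axis), plus 1, on log scales, in cytoplasm (left) and total RNA (right). Each point is a circRNA. Green points reached 2 reads in both replicates of both genotypes (89 and 155) and lie in the middle. Grey points reached it in 1 genotype and lie toward the axis of that genotype.

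Long-span circRNAs took a small share of junction reads, with a lower mean in cytoplasm than in total RNA. In the WT cytoplasm they took 2.68% (95% Wilson interval 2.57 to 2.79) and 3.01% (2.90 to 3.13) of the reads, and in the KO cytoplasm 2.79% (2.65 to 2.94) and 2.44% (2.32 to 2.56). The WT total RNA libraries stood at 3.10% and 3.31%, and the KO ones at 2.88% and 3.35%. The cytoplasmic mean was 2.73% ± 0.24 (SD, n = 4) against 3.16% ± 0.21 (SD, n = 4) in total RNA, and the ranges overlapped (two-sided exact permutation p = 0.0571, genotypes pooled). The intervals cover counting error only, since reads without molecular identifiers are not independent molecules.

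Set against the compact class, the difference between the fractions was larger than the spread. The log2 ratio of long-span to compact reads was -3.22 ± 0.19 (SD, n = 4) in cytoplasm and -2.88 ± 0.05 (SD, n = 4) in total RNA, with no overlap (exact permutation p = 0.0286, the smallest that 4 against 4 libraries allow). Each n of 4 pools 2 WT and 2 KO libraries, and the permutation did not keep the genotypes apart. The cytoplasmic mean was -3.06 in WT and -3.39 in KO, and the total RNA mean -2.86 in WT and -2.89 in KO. Within the cytoplasm the ratio was -3.12 and -3.01 in WT and -3.38 and -3.40 in KO, so the genotypes did not overlap, but 2 against 2 libraries cannot go below an exact permutation p of 0.33. In total RNA it was -2.90 and -2.82 in WT and -2.93 and -2.86 in KO, and the genotypes overlapped. The cytoplasmic share of long-span reads itself averaged 2.84% ± 0.24 for WT (SD, n = 2) and 2.62% ± 0.25 for KO (SD, n = 2), with overlap (exact permutation p = 0.667). The difference, KO minus WT, was -0.229 percentage points, -0.0501 without KO replicate 2, -0.0625 without WT replicate 2, -0.396 without WT replicate 1 and -0.409 without KO replicate 1. The compact share of cytoplasmic reads was 23.2% and 24.2% in WT and 29.0% and 25.7% in KO, without overlap. The ratio moves with either share, and it was not taken against the other classes. In the cytoplasm the middle class took 47.2% and 49.8% in WT and 49.8% and 44.1% in KO. Single-exon circRNAs took 3.49% and 3.63% in WT and 3.71% and 4.01% in KO.

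**Figure D3:**
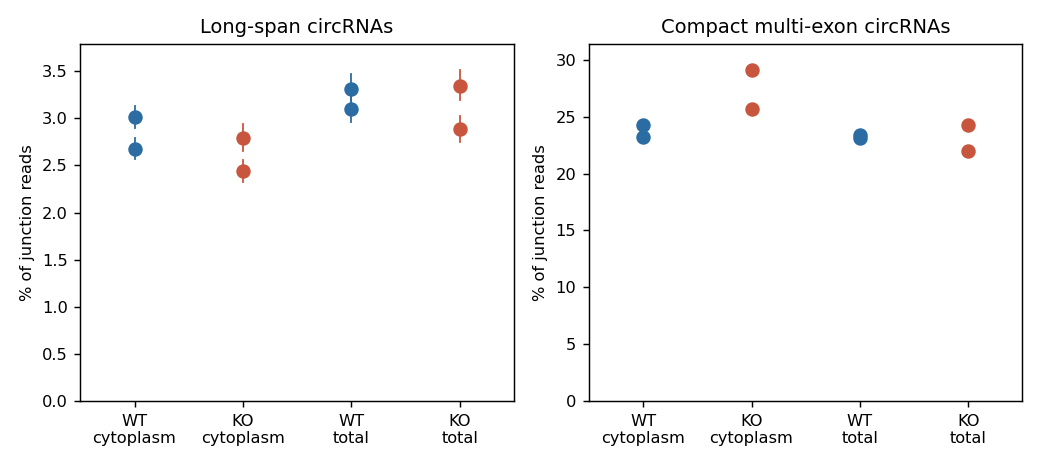
Share of all junction reads in each library taken by long-span (left) and compact multi-exon circRNAs (right), in percent, by genotype and fraction. Points are libraries and lines the 95% Wilson intervals, drawn for the left panel; long-span shares lie between 2.44% and 3.35%, and compact shares between 22.0% and 29.0%.

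Few long-span circRNAs were listed in both fractions. Of the 638, 189 were in the cytoplasmic lists alone, 274 in the total RNA lists alone and 175 in both, or 27.4%, against 28.2% of compact circRNAs. A listed long-span circRNA had a median of 16 reads over the 4 cytoplasmic libraries and 13 over the 4 total RNA libraries, while compact circRNAs had 17 and 13. Over all 8 libraries the long-span circRNAs had 14489 reads with a median of 15 each, and the 8 most abundant held 8.68% of them. Only 106 had a read in every one of the 8 libraries.

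circCpq, from the gene for carboxypeptidase Q, had the most reads. It had 50 and 81 reads in the WT cytoplasm, 17 and 23 in the KO cytoplasm, 22 and 8 in WT total RNA and 32 and 13 in KO total RNA. Both WT cytoplasmic libraries were above both KO ones, but edgeR's adjusted p was 0.171 (log2 KO over WT -1.15, SE 0.71), and in total RNA the genotypes overlapped.

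circDiaph3 at chr14:86852072-86910123, exons 19 to 22 of the actin-nucleating formin DIAPH3, had 91 and 44 reads in the WT cytoplasm and 6 and 19 in the KO cytoplasm. It was lower in KO (log2 -1.95, SE 0.78, edgeR adjusted p = 0.0387). Its total RNA values of 18 and 10 for WT lay below the 20 and 22 for KO (edgeR adjusted p = 0.396). circRere at chr4:150439343-150510038, from a transcriptional corepressor gene, had 19 and 35 reads in the WT and 6 and 7 in the KO cytoplasm (log2 -1.48, SE 0.62, edgeR adjusted p = 0.0490). Its total RNA values were 28 and 4 for WT against 8 and 3 for KO, so the WT replicates differed more than the genotypes.

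The other 5 of the 8 did not pass the test in either fraction. circDtnb, from the gene for the dystrophin-associated protein beta-dystrobrevin, had 35 and 31 reads in WT against 9 and 9 in KO cytoplasm (edgeR adjusted p = 0.0836). circRnf150, from a RING finger gene, had 22 and 59 reads in WT against 2 and 33 in KO cytoplasm, so its KO replicates lay on both sides of a WT value. circPcdh19, from a protocadherin gene, had 18 and 23 in WT and 19 and 17 in KO. circStau2, from a gene for a double-stranded RNA binding protein, had 12 and 30 in WT and 15 and 15 in KO. The second circDiaph3, at chr14:86810336-86866642, had 26 and 27 in WT and 3 and 20 in KO. In reads, circDtnb and that circDiaph3 had both WT cytoplasmic libraries above both KO ones, while the others overlapped. In CPM over the effective library sizes, this circDiaph3 stood at 350 and 318 in WT and 59.8 and 339 in KO and overlapped, and circPcdh19 at 242 and 271 in WT and 379 and 288 in KO did not.

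**Figure D4:**
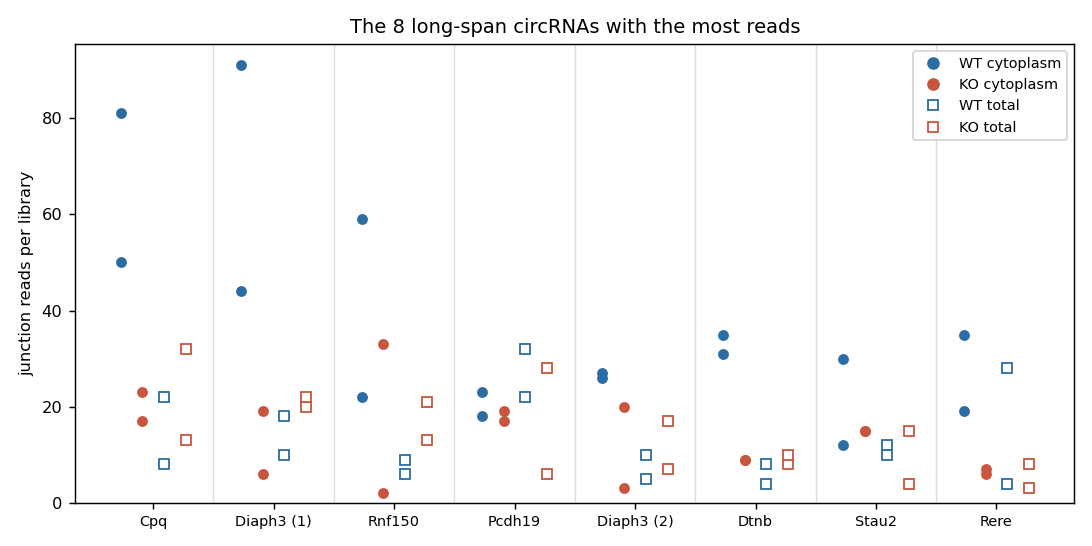
Junction reads per library (y axis, linear, from 0) for the 8 long-span circRNAs with the most reads; filled circles are cytoplasmic and open squares total RNA libraries, blue WT and orange KO. Diaph3 (1) is chr14:86852072-86910123 and Diaph3 (2) chr14:86810336-86866642; in the cytoplasm the WT libraries of Cpq, both Diaph3 circRNAs, Dtnb and Rere lie above the KO ones in reads, which are not scaled for depth, and in total RNA none of these 5 shows WT wholly above KO.

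In the cytoplasm, 188 of the 340 long-span circRNAs with at least 10 reads differed between KO and WT at edgeR's adjusted threshold of 0.05, of which 97 rose and 91 fell. Over all circRNAs tested the share was 53.5% (30.0% higher, 23.5% lower), and in the compact class 1512 of 2698 were called, so the 55.3% of long-span circRNAs is near the background. Their median log2 KO over WT was -0.83 against -0.25 over all, but -0.11 against 0.11 without WT replicate 1 and 0.60 against 0.25 without WT replicate 2, so neither its sign nor its order against all circRNAs held. Of the 188, 168 had reached 2 reads in both replicates of 1 genotype alone. Among the 89 that reached it in both genotypes, refitted with the other circRNAs that did so, 8 were called (5 higher, 3 lower), beside 9.43% of all (6.16% higher, 3.27% lower), and the median log2 difference was 0.06. Without KO replicate 1 the median log2 of the long-span circRNAs tested was -0.68 against -0.34 over all, and without KO replicate 2 it was -0.95 against -0.36. Leaving out 1 library left 217 to 257 long-span circRNAs to test in place of 340. DESeq2 called 18 of the 340, 14 of them higher, beside 5.08% of all (4.22% higher, 0.864% lower). With no scaling 103 were called, 38 of them higher, beside 26.4% of all (9.39% higher, 17.0% lower).

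The long-span circRNAs with the smallest p that were higher in the KO cytoplasm came from genes of unlike roles. circRapgef6 at chr11:54543579-54610919, from a gene for a Rap guanine nucleotide exchange factor, had 1 and 1 reads in WT against 19 and 17 in KO, a ratio of 26.3 (95% counting interval 6.76 to 225). circAtxn1 at chr13:45697821-45795637, from the ataxin-1 gene, had 1 and 0 in WT and 14 and 11 in KO, a ratio of 36.5 (5.97 to 1498). Its 3 exons are annotated as untranslated. circSfxn5 at chr6:85229194-85299617, from a sideroflexin gene, had 1 and 1 in WT and 16 and 15 in KO, a ratio of 22.6 (5.75 to 195). circAsxl3 at chr18:22392644-22453701, from a gene of the Asx-like chromatin regulators, had 0 and 1 in WT and 15 and 11 in KO, a ratio of 37.9 (6.23 to 1555). All 4 had an edgeR adjusted p of 0.000138, and the KO libraries lay far above the WT ones in each. circSfxn5 and circAsxl3 were in no total RNA list.

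Those lower in the KO cytoplasm were near or at 0 in KO. circFancc at chr13:63340319-63403038, from a Fanconi anaemia complementation gene, had 14 and 17 reads in WT against 0 and 0 in KO, at least 7.08-fold lower against a floor of 3 reads over the KO libraries (edgeR adjusted p = 0.000165). circPola1 at chrX:93420567-93480610, from the gene of the DNA polymerase alpha catalytic subunit, had 25 and 26 in WT and 1 and 0 in KO (ratio 0.0286, 0.000711 to 0.167, edgeR adjusted p = 0.000293). circKdm4c at chr4:74271194-74330848, from a histone demethylase gene, had 20 and 14 in WT and 1 and 0 in KO (ratio 0.0429, 0.00106 to 0.256, edgeR adjusted p = 0.000411). circWdr70 at chr15:7920487-7977142, from a WD repeat gene, had 11 and 10 in WT and none in KO, at least 4.80-fold lower (edgeR adjusted p = 0.000444). None of these 8 reached 2 reads in both replicates of both genotypes, so each was listed through the genotype where it was high.

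In total RNA, 0 of the 368 long-span circRNAs tested passed edgeR's adjusted p of 0.05, and 0% of all circRNAs did. Of the 368, 148 had an unadjusted p under 0.05, beside 3405 of 8903 over all circRNAs, and the smallest adjusted p was 0.0580. DESeq2 called 0 of the 368, beside 0.0899% of all (0.0449% higher, 0.0449% lower). At an unadjusted p under 0.05 it had 28 of the 368, beside 733 of 8903 over all. Other scalings of the same edgeR test did call some: library totals gave 90, beside 22.5% of all, and relative log expression factors 79. The share over all circRNAs with the latter factors is not given here. Without KO replicate 2 the median log2 KO over WT was -0.33 against -0.19 over all, and without WT replicate 2 it was 0.29 against 0.12. Among the 155 that reached 2 reads in both replicates of both genotypes, edgeR called 0. Over all circRNAs this fit called 0.048%, 0.024% higher and 0.024% lower. At an unadjusted p under 0.05 it had 11 of the 155, beside 374 of 4168 over all. The median log2 KO over WT of the 368 was -0.03.

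The members with the smallest p in total RNA are given as values. circEtv6 at chr6:134066307-134137417, from an ETS family transcription factor gene, had 0 and 1 reads in WT against 13 and 11 in KO total RNA, and 7 and 11 against 16 and 9 in the cytoplasm. circPvt1 at chr15:62107148-62160128, from a long noncoding RNA gene, had 2 and 1 against 13 and 10. circGrik2 at chr10:49355909-49422672, from a kainate receptor gene, had 0 and 0 against 5 and 5, at least 3.43-fold higher, and in the cytoplasm 1 and 0 against 7 and 4. The circRNA of 2010111I01Rik at chr13:63015026-63068285 had none in WT and 10 and 5 in KO. In the other direction, circTanc2 at chr11:105758922-105810597 had 11 and 9 in WT and 1 and 2 in KO. circAhcyl2 at chr6:29799439-29896416 had 4 and 7, and circDtnb at chr12:3589171-3644022 and circDiaph3 at chr14:86828992-86918864 had 4 and 6 each, with none in KO. Each of these 8 had an edgeR adjusted p of 0.0580, and none overlapped between genotypes, which a choice by smallest p favours. None reached 2 reads in both replicates of both genotypes, so each was listed through the genotype where it was high.

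The KO effect was then compared between cytoplasm and total RNA, with a test of the difference of both log2 changes. This was significant for 31 of the 558 long-span circRNAs tested (5.56%), against 7.41% of all circRNAs (4.22% higher, 3.19% lower). All 31 were listed in both fractions; 18 had the higher KO over WT ratio in cytoplasm and 13 in total RNA. When 1 KO total RNA library was left out, either replicate 1 or replicate 2, 0 passed. When the test was limited to circRNAs listed in both fractions, 51 of 175 long-span circRNAs passed, against 31.0% of all (16.5% higher, 14.5% lower).

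Zfhx3, a zinc finger homeobox transcription factor gene, is one example. Its circRNA at chr8:108792202-108856953 had 1 and 2 reads in the WT cytoplasm and 26 and 27 in the KO cytoplasm, but 10 and 18 in WT total RNA and 7 and 7 in KO total RNA (difference of log2 changes 5.45, SE 0.93, edgeR adjusted p = 0.000737). circAtxn1 had 7 and 10 reads in WT against 2 and 0 in KO total RNA, the reverse of its cytoplasmic values (difference 7.66, SE 1.12, edgeR adjusted p = 0.000260). circRapgef6 had 5 and 4 in WT and 1 and 2 in KO total RNA (difference 5.93, SE 1.03, edgeR adjusted p = 0.000792). In these 3 the WT libraries were below the KO ones in cytoplasm and above them in total RNA.

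The opposite pattern was seen in 3 others. circTfdp2 at chr9:96202131-96273942, from a gene for an E2F dimerization partner, had 9 and 8 reads in the WT and 0 and 0 in the KO cytoplasm, but 0 and 1 in WT and 8 and 4 in KO total RNA (difference -9.13, SE 1.58, edgeR adjusted p = 0.000792). circAkt3 at chr1:177078774-177131096, from a serine/threonine kinase gene, had 17 and 15 against 1 and 2 in cytoplasm, and 1 and 0 against 3 and 6 in total RNA (difference -5.78, SE 1.17, edgeR adjusted p = 0.00235). circThada at chr17:84334026-84416387 had 12 and 10 against 1 and 2, and 1 and 1 against 11 and 3 (difference -5.01, SE 1.06, edgeR adjusted p = 0.00315).

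**Figure D5:**
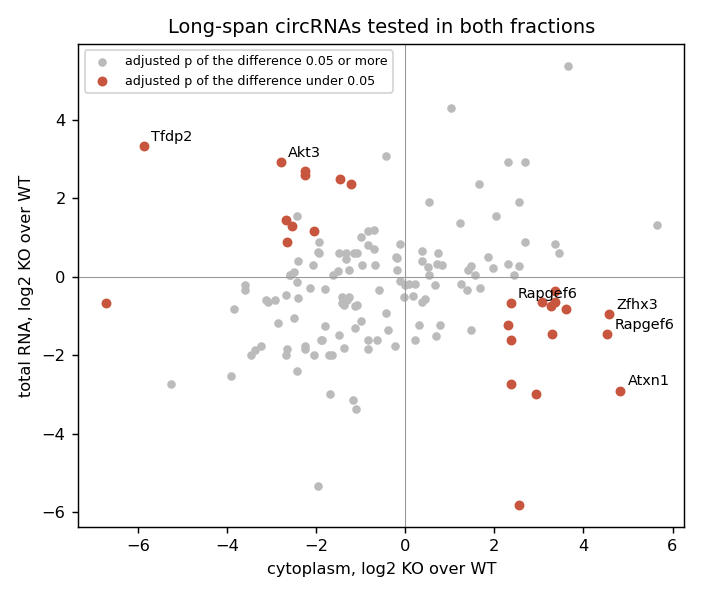
Fitted log2 KO over WT of long-span circRNAs in cytoplasm (x axis) and total RNA (y axis), for those tested in both; each point is a circRNA. Orange points, those whose change differed between fractions at an adjusted p under 0.05, lie mostly in the upper left and lower right, where the sign differs, which a choice by that difference favours.

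A few genes gave several long-span circRNAs. Of the 358 hosts, 135 had more than 1, and 18 had 5 or more, together 108 circRNAs. Diaph3 had 10, with 539 reads in all. These 10 used 5 start and 6 end positions. All but the one at chr14:87037456-87091154 share an exon edge with another, so those are not independent loci. Of the 7 tested in the cytoplasm, 1 was higher and 3 were lower in KO. Besides the one at chr14:86852072-86910123, those lower were chr14:86852072-86918864, with 5 and 6 reads in WT against 0 and 1 in KO, and chr14:86828992-86910123, with 5 and 6 against 1 and 0 (edgeR adjusted p = 0.0247 for both). The higher one, chr14:86772086-86829154, had 1 and 1 against 4 and 7 (edgeR adjusted p = 0.00399). The longest, of 99788 bp, had 25 and 9 against 7 and 5 (edgeR adjusted p = 0.178). The Diaph3 circRNA at chr14:87037456-87091154 was in the total RNA lists alone, at 4, 3, 4 and 4 reads, and showed no difference beyond 1 read.

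Stag1, which encodes a cohesin subunit, had 7 long-span circRNAs over 4 start and 7 end positions. Of 4 tested in the cytoplasm, 2 were higher and 1 was lower in KO. Its most abundant, at chr9:100705153-100786696, had 4 and 7 reads in WT against 7 and 6 in KO, which overlapped in reads (edgeR adjusted p = 0.240). In CPM over the effective library sizes it stood at 53.8 and 82.5 in WT and 140 and 102 in KO, without overlap. From the same start, the circle to chr9:100705153-100757786 had 2 and 1 against 6 and 16 (edgeR adjusted p = 0.000503) and that to chr9:100705153-100803354 had 2 and 1 against 7 and 4 (edgeR adjusted p = 0.0104). The one at chr9:100757690-100834541 went the other way, with 12 and 11 against 1 and 0 (edgeR adjusted p = 0.00101). All 3 that were called had been listed through the genotype where they were high, and the most abundant one, listed through both, was not called.

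Osbpl1a, for an oxysterol binding protein, and Ltbp1, for a latent TGF-beta binding protein, had 7 each. Of 6 Osbpl1a circRNAs tested in the cytoplasm, 1 was higher and 3 were lower in KO, and of 3 from Ltbp1, 1 was lower. The most abundant circOsbpl1a, at chr18:12819505-12892289, had 8 and 7 in WT and 2 and 1 in KO cytoplasm, without overlap (edgeR adjusted p = 0.0514). The most abundant circLtbp1, at chr17:75273867-75327322, had 5 and 6 against 0 and 3 (edgeR adjusted p = 0.177).

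The circRNAs of largest span had few reads. circErc1 at 99947 bp, from a gene for a scaffold protein of vesicle docking, was in the total RNA lists alone, with 5 and 4 reads in WT against 3 and 1 in KO. circSox5 at 99534 bp, from an SRY-related transcription factor gene, had 1 and 1 in WT and 4 and 5 in KO cytoplasm (edgeR adjusted p = 0.0133). circOphn1 at 99202 bp, from the oligophrenin-1 gene, had 8 and 8 in WT and 1 and 1 in KO (edgeR adjusted p = 0.0138). Both were listed through the genotype where they were high.

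By role of the host gene, 119 hosts with 236 long-span circRNAs fell in the 6 lists of gene roles. Their counts stand beside 30.0% higher and 23.5% lower over all circRNAs in the cytoplasm. In adhesion, cytoskeleton and cell polarity, 24 circRNAs were tested in the cytoplasm, 5 higher and 6 lower in KO, with a median log2 of -0.65; Diaph3 and Ltbp1 had the most reads. In transcription and chromatin, 8 of 34 were higher and 8 lower (median -0.20), with Rere and Zfhx3 leading. Among kinases and phosphatases, 6 of 23 were higher and 7 lower (median -1.22). The most abundant circRNA of Fer, a tyrosine kinase gene, at chr17:63991594-64078975, had 3 and 22 reads in WT against 3 and 5 in KO (edgeR adjusted p = 0.164); of its 4 tested, 2 were lower. That of Rps6kc1, at chr1:190844487-190899571, had 16 and 16 against 3 and 8 (edgeR adjusted p = 0.114), and 1 of its 4 was higher.

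Among small GTPase regulators, 8 of 28 were higher and 6 lower (median -0.74). The most abundant circRNA of Tbc1d5, for a Rab GTPase activating protein, at chr17:50874566-50935558, had 9 and 9 in WT and 4 and 13 in KO (edgeR adjusted p = 0.452). That of Dennd1b, for a Rab exchange factor, at chr1:139040000-139110485, had 12 and 10 against 2 and 1 (edgeR adjusted p = 0.00564); 2 of the 4 from this gene were higher and 2 lower. In vesicle and membrane traffic, 7 of 23 were higher and 6 lower (median -0.88). circSnx25 at chr8:46054319-46124146, from a sorting nexin gene, had 8 and 11 against 2 and 0 (edgeR adjusted p = 0.00739), while circSnx25 at chr8:46068056-46124146, which shares its end, had 1 and 1 against 9 and 6 (edgeR adjusted p = 0.000954). In ubiquitin and proteolysis, 2 of 6 were higher and none lower (median -0.69); circFbxw11 at chr11:32652748-32711997, from an F-box gene, had 11 and 20 against 8 and 5 (edgeR adjusted p = 0.280). Of Hipk3, Specc1, Nfix, Wwc1 and Adarb1, Nfix alone had a long-span circRNA, with 1 and 3 against 3 and 5 (edgeR adjusted p = 0.108).

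The mRNA of the host genes was compared in the mRNA-seq libraries. Here the heading inside each file names the other genotype than the sample title; titles were followed, and every mRNA direction would turn if the headings were right. The targeted gene did not settle this: Xpo4 had 657, 614 and 685 counts in the libraries labelled WT and 712, 504 and 687 in those labelled KO (edgeR adjusted p = 0.193), and a count over the whole gene need not move with a small edit. The libraries had the profile of fibroblasts: 11 of 12 fibroblast markers were above 1 FPKM in both groups, with summed levels of 2747 to 2846 FPKM in WT and 2814 to 2923 in KO. The exception was Fap, at 0, 0 and 2 counts in WT and 26, 19 and 16 in KO. Of 14 markers of other cell types, Cd68 and Snap25 were above 1 FPKM and 3 had no count in any library; their summed level was 7.12 to 8.38 FPKM in WT and at most 6.20 in KO. Their part in the results was not tested.

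Of the 353 host genes tested, 205 differed between the genotypes as labelled at edgeR's adjusted threshold of 0.05, 112 upward and 93 downward in KO. Over all genes the share was 48.7% (25.1% higher, 23.6% lower), and over hosts of other exonic circRNAs 2282 of 4187. The hosts had a median of 5.44 FPKM (interquartile range 2.52 to 10.5), against 8.60 FPKM for hosts of the other exonic circRNAs. Gas2, for an actin-associated protein of growth arrest, had 657, 745 and 849 counts in WT and 2203, 2311 and 2122 in KO (3.44-fold higher, edgeR adjusted p = 2.99e-10). Brinp3 had 14, 16 and 12 against 180, 173 and 163 (14.2-fold higher, edgeR adjusted p = 4.35e-09). Cpne8, of the copine family, was 2.33-fold higher and Ust, a sulfotransferase gene, 3.17-fold higher. In each of these 4 every KO library was above every WT one, which a choice by smallest p favours.

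Bmper, for a secreted BMP-binding protein, had 802, 806 and 975 counts in WT and 259, 219 and 218 in KO (3.18-fold lower, edgeR adjusted p = 3.70e-09). Peli2, an E3 ubiquitin ligase gene, was 2.05-fold lower, Ghr, the growth hormone receptor, 1.71-fold lower and Foxp1, a forkhead transcription factor gene, 1.79-fold lower. These 4, chosen in the same way, did not overlap between the groups either. Circle and host mRNA were then set side by side. Of 109 long-span circRNAs called in the cytoplasm whose host mRNA was also called, 53 (48.6%) went the same way, against 51.6% over all exonic circRNAs outside the nuclear lists. If the file headings were right, these shares would be 51.4% and 48.4%, so their order rests on the sample titles. Diaph3 mRNA, with 1199, 1264 and 1329 counts in WT and 1100, 1015 and 1107 in KO, did not pass (log2 -0.02, edgeR adjusted p = 0.862).

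Genes for circRNA formation and export were looked up in the same libraries. Of 23 tested, 1 rose and 10 fell in KO as labelled, beside 25.1% higher and 23.6% lower over all genes. Mbnl1, a splicing factor of the muscleblind family, rose 1.39-fold (edgeR adjusted p = 1.02e-05). Ddx39b, an RNA helicase of export, had 10731, 10933 and 12764 counts in WT and 5436, 5514 and 5228 in KO, 1.82-fold lower (edgeR adjusted p = 2.04e-08). Adar, which edits double-stranded RNA, fell 1.40-fold (edgeR adjusted p = 0.000439), and Dhx9, an RNA helicase, fell 1.34-fold (edgeR adjusted p = 0.000295). Sf3b1, Qk, Hnrnpl, Hnrnpc, Dicer1 and Rbmx also fell, by 1.10-fold to 1.26-fold.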

How the data were processed

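The authors found circRNAs from trimmed reads with find_circ and deposited, for each library, a count of junction reads per circRNA. Linear RNA had been digested with RNase R before these libraries were made. The study merged circRNAs found in both replicates; other filters are not given in the sources used here, and the ceiling of 100000 bp and the floor of 2 reads were found by testing the lists. For mRNA-seq the authors deposited counts per gene from featureCounts (version 2.0.0, no strand option set) after HISAT2. Neither kind of count was normalized. The extraction notes speak of blood, and the labels' cell line was followed. The positions are on mm10, and 7 positions with several coordinates were left out.

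Start positions were read as 0-based and printed as 1-based. Exon edges came from the mRNA count files. Structure and sequence came from the GRCm38 genome with GENCODE vM21, in which 600 of the 638 had a transcript holding both ends; 54349 of the 55401 gene identifiers were shared. 12 circRNAs had no host gene. For repeats, at least 20 matching bases counted as long.

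KO and WT were compared with edgeR (version 4.0.16, R 4.3.3; quasi-likelihood test, TMM) with Benjamini-Hochberg adjustment over all circRNAs or genes, and a threshold of 0.05. CircRNAs entered a fit with 10 reads or more in its libraries together, and a circRNA missing from a list was entered as 0. SE is the size of the log2 change over the root of F. Ratios used effective library sizes, with exact 95% conditional intervals, and a floor of 3 reads over a genotype where it had none. FPKM was computed from the counts. Shares were compared by exact permutation, between fractions with the genotypes pooled. The tests were checked on simulated data. Replicates differed by more than counting noise or near it (chi-square per long-span circRNA 1.15 to 1.62), so no library was taken as a duplicate. Alternatives were other scalings, no filter, DESeq2 (version 1.42.0), a replicate block, each library left out, and, added after seeing the data, circRNAs with at least 2 reads in both replicates of both genotypes or listed in both fractions.

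The members and gene lists were chosen with earlier results of these data known. Named were the 8 circRNAs with the most reads, the 4 with the smallest p each way per fraction (3 for the difference), the 4 largest spans, 3 on each side of the limit, the 4 hosts with the most circRNAs, 2 hosts per list, and the 4 host mRNAs with the smallest p each way with a mean count of at least 50. Of hosts with several circRNAs, the one with the most reads was printed; any others printed were picked after their values were seen. One gene of the circRNA formation and export list is counted but not reported here by name.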

Additional observations from a re-analysis of the deposited data

Results flagged for a closer look

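In 11 named long-span circRNAs the KO effect differed between cytoplasm and total RNA (edgeR, adjusted p under 0.05). The difference of both log2 changes, cytoplasm minus total RNA, was 7.66 for circAtxn1, 5.93 for circRapgef6, 5.45 for circZfhx3, 6.11 for circDiaph3 at chr14:86772086-86835101, 4.71 for circStag1, 3.94 for circOsbpl1a and 3.94 for circSnx25. It was -9.13 for circTfdp2, -5.96 for circFancc, -5.78 for circAkt3 and -5.01 for circThada. circDiaph3 at chr14:86772086-86835101 had 4 and 3 reads in the WT and 5 and 6 in the KO cytoplasm, and 2 and 5 in WT and none in KO total RNA. The difference of circOsbpl1a, at chr18:12819505-12882277, lay next to the threshold (edgeR adjusted p = 0.0485). The floor of 2 reads in both replicates of 1 genotype moves with these differences, since 1 genotype is at 0 to 3 summed reads in at least 1 fraction in each; its part in them was not tested. Where a genotype is at 0, the fitted size depends on the prior count of the fit and is no measured fold. Without KO total RNA replicate 1 or 2, 0 long-span circRNAs passed this test.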

How the results depend on the processing

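In place of the 188 long-span calls in the cytoplasm there were 103 with no scaling, 18 by DESeq2, and 8 among those with at least 2 reads in both replicates of both genotypes; leaving out 1 library gave 71 to 148. Over all circRNAs the shares called there were 26.4% with no scaling, 5.08% by DESeq2 and 9.43% with that minimum in both genotypes. With no scaling the median log2 change of all circRNAs there was -0.77 in place of -0.25. In total RNA, 0 calls became 79 with relative log expression factors and 90 with library totals, the latter beside 22.5% of all circRNAs. Without 1 library, 231 to 261 were tested there in place of 368. The difference between fractions, 31 calls, gave 2 with no scaling, 4 by DESeq2 and 51 among circRNAs listed in both fractions; leaving out 1 library gave 0 to 28, the 0 without KO total RNA replicate 1 or 2. Host mRNA calls were 205, and 179 to 223 without 1 library. The share difference in total RNA, KO minus WT (-0.0915 percentage points), ran from -0.322 to 0.139 without 1 library and was 0.0154 without WT replicate 2. Cytoplasm minus total RNA was -0.431, and -0.455 without the member with the most reads, each with an exact permutation p of 0.0571. It was -0.509 over exonic circRNAs, -1.56 for spans over 30000 bp and -0.479 with nuclear-listed circRNAs kept. These last values each had an exact permutation p of 0.0286. Without 1 library the difference ran from -0.333 to -0.524, with an exact permutation p of 0.0571 to 0.114. A span limit of 100000 bp left no circRNA. The 51 calls stood beside 31.0% of all circRNAs listed in both fractions. Shares over all circRNAs or genes are not given here for fits without 1 library, nor for the 79, 2 and 4 calls. Those counts do not show whether a change concerned the long-span circRNAs alone. The causes of these changes were not tested, beyond the fewer circRNAs or samples entered. Of 315 values for named items, 263 kept their side of the threshold, 31 passed it and 21 no longer did, and 0 reversed.

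Replicate numbers are shared between genotypes, but deviations of same-numbered libraries correlated at -0.0811 to 0.0543, so the numbers were not taken as pairs. A replicate block gave 165 calls in the cytoplasm, 92 of 368 in total RNA (beside 23.1% of all circRNAs), 34 for the difference between fractions and 208 host mRNAs. The shares over all circRNAs or genes beside the 165, 34 and 208 are not given here.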
